A study of Mus musculus with 6 samples.

Results

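Collagen chain genes encode the polypeptides from which cells build collagen, the main protein of the extracellular matrix. All rows of the deposited count table whose symbol had the form of Col, a number, the letter a and a number were taken as members, which gave 44 of the 17830 genes in the table. They were measured by bulk RNA sequencing of 6 libraries of tdTomato-positive cells, sorted from cultures of calvarial (skull) bone chips of mice aged 6 months and labelled as skull osteoblasts. The control group (3 libraries, mOCN-Cre;Ai9) carried Cre knocked into the osteocalcin gene Bglap together with Ai9, a reporter whose red fluorescent tdTomato appears in cells that have had active Cre. The APPswe group (3 libraries, TgAPPswe mOCN-Cre;Ai9) carried both of these alleles and a transgene that expresses the Swedish mutant of human APP from the CAG promoter after Cre has removed a stop cassette. Both groups therefore shared the Cre and the reporter, and the study names male mice on a C57BL/6J background. Sorting on tdTomato was meant to keep cells in which the osteocalcin promoter had been active at some time. Markers of other cells were also present and are given below. The cells had grown out of the bone chips in medium with an ascorbic acid phosphate and beta-glycerophosphate, and were replated without these before sorting. The labels number the replicates and do not say whether they came from separate animals or cultures, so the p-values measure the spread between these libraries.

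A collagen molecule is made of chains that wind around one another along a repeat rich in glycine and proline. Fibrillar collagens assemble into the ropes that carry tension, and in bone nearly all of this is type I, built from Col1a1 and Col1a2, on which mineral is laid down. Type IV collagens form the sheet-like mesh of basement membranes, type VI forms beaded filaments around cells, and the FACIT chains (fibril-associated collagens with interrupted triple helices) sit on the surface of fibrils. Types II, IX, X and XI are the collagens of cartilage. In bulk samples, fewer cells of a type and less RNA per cell cannot be told apart.

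Of the 44 members, 34 had enough counts to be tested with edgeR's quasi-likelihood test over all 13484 genes that passed its low-count filter. Calls required a Benjamini-Hochberg adjusted p no higher than 0.05 and a log2 fold change of 1 or more in size. In APPswe libraries 7 collagen chains were called higher (Col14a1, Col9a2, Col8a2, Col25a1, Col3a1, Col6a1 and Col6a2), where 3.74% of all genes tested were called higher. Col9a2 and Col25a1, which had few counts, passed the low-count filter through the APPswe libraries alone, and when every library had to hold 10 counts or more neither was tested and 5 chains were called higher. The 3 chains called lower, where 3.6% of all genes were, were the type IV chains Col4a1, Col4a2 and Col4a5. In either direction this was 10 of 34 chains, where 7.34% of all genes were called. By the adjusted p alone 10 chains passed as higher (10.5% of all genes) and 4 as lower (12% of all genes), and 20 passed neither way. Either direction by the adjusted p alone held 22.5% of all genes. For these counts of chains and genes, overlap was judged on counts scaled to library size. The 3 APPswe libraries lay above all 3 control libraries for 14 chains (22.8% of all genes) and below them for 5 (22.2% of all genes), so the groups did not overlap for 19 of 34 chains, against 45% of all genes. The median log2 fold change was 0.35 over the 34 chains and -0.0033 over all genes tested. As an alternative, limma on log2(FPKM + 1) called 6 chains higher and 2 lower, and over all genes it called 322 higher and 182 lower where edgeR called 504 and 486.

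**Figure D1:**
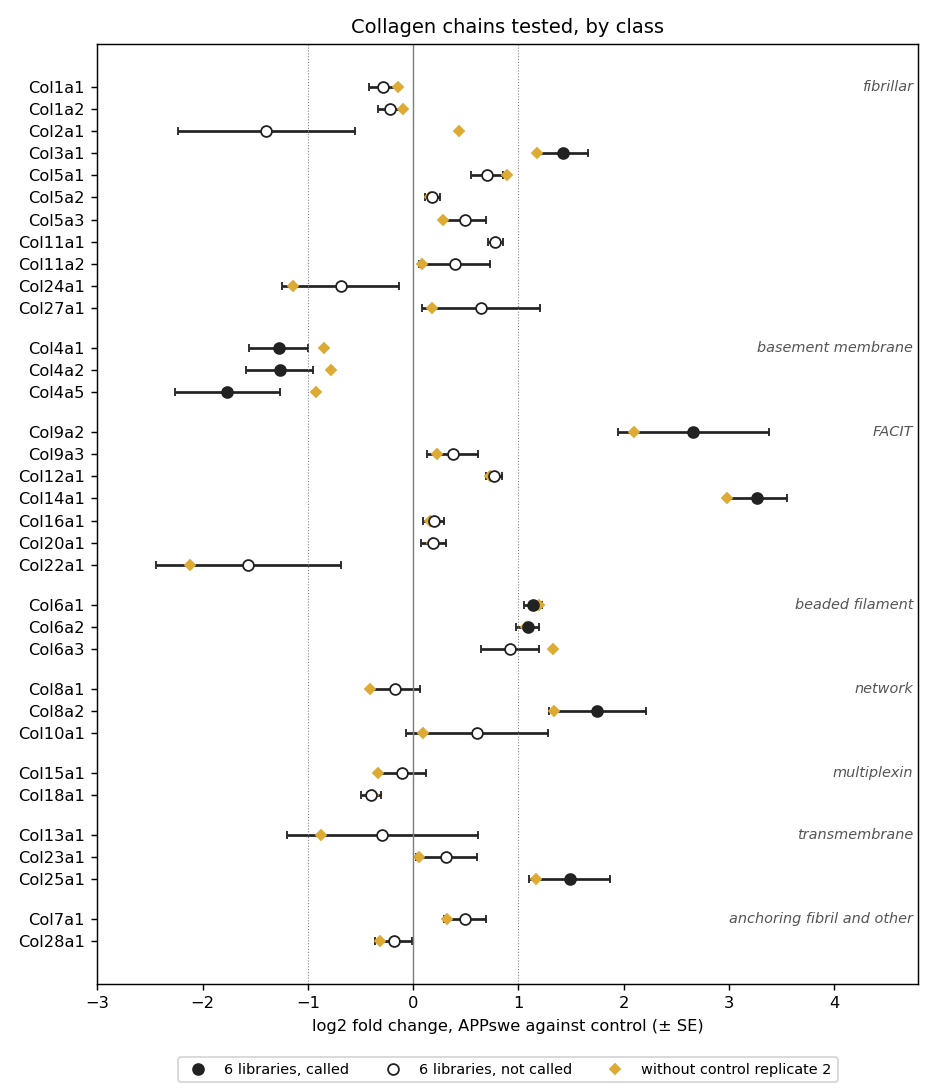
Log2 fold change (x axis, APPswe against control, bars ± SE) of the 34 collagen chains tested, grouped by structural class, with filled circles for called genes and diamonds for the same fit without control replicate 2; dotted lines mark the fold limit of 1. Col14a1 lay farthest to the right at 3.27, all 3 type IV chains lay at or below -1.27, and the diamond of Col2a1 lay on the other side of 0 from its circle.

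Total counts ranged from 17263757 to 18398392 per library, so that 3 counts, the floor of detection, stood for 0.167 to 0.173 CPM (counts scaled to a common library size), a floor that covers counting error only. Control replicate 2 stood apart. Its library name is Ctrl-S, where the names of all the others have an L in place of the S. Uty, Ddx3y, Kdm5d and Eif2s3y, 4 genes of the Y chromosome, summed to 2 counts in it and 2257 to 3406 in the other libraries, and Bglap had 1 count in it and 115 to 204 in the others. The study names male mice, and the reason for the few Y-linked counts was not tested. It was the lowest of the 6 libraries for 21 of the 34 chains tested (61.8%), which held for 28.9% of all genes, and the highest for 6 chains (17.6%, against 28.0% of all genes). Results are therefore also given without it. In that fit 8 chains were called higher (4.87% of all genes), namely the same 7 and Col6a3, and 3 were called lower (6.58% of all genes), none of them a type IV chain. By the adjusted p alone that fit passed 14 chains as higher (23.3% of all genes) and 9 as lower (25% of all genes).

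Summed markers of several other cell types differed between the groups, while those of fibroblasts and Schwann cells overlapped. Summed macrophage markers lay at 18025 to 24942 CPM in control and 12512 to 13501 CPM in APPswe libraries, above the osteoblast markers (6140 to 9531 and 3690 to 3907 CPM, mostly Spp1) in every library. Of the 13 macrophage markers 8 passed the adjusted p as lower and 1 as higher, and of the 12 osteoblast markers 1 and 2. Over all genes 12% passed as lower and 10.5% as higher. Each of these lists had 1 marker called higher and 1 called lower, beside 3.74% and 3.6% of all genes. Skeletal muscle markers lay at 1.44 to 10.8 CPM in control and 166 to 172 CPM in APPswe libraries, with 9 of 9 tested called higher. All of these but Acta1 (12, 72 and 15 counts in control) passed the low-count filter only through the APPswe libraries. Tendon markers lay at 313 to 528 against 907 to 933 CPM (2 of 4 called higher), osteoclast markers at 158 to 287 against 595 to 606 CPM (3 of 6 called higher), and pericyte and smooth muscle markers at 756 to 1598 against 1716 to 1827 CPM (2 of 7 called higher). Of the osteoclast markers, Oscar (3, 12 and 9 counts in control) and Ocstamp (3, 5 and 3 counts) also passed the filter only through the APPswe libraries. Endothelial markers lay at 81.8 to 256 against 24.3 to 26.0 CPM (2 of 6 called lower), fibroblast markers at 1439 to 2311 against 1674 to 1698 CPM (2 of 8 called higher), and Schwann cell markers at 10.4 to 44.9 against 11.7 to 13.1 CPM (0 of 3 called). The fibroblast and tendon lists each also had 1 marker that passed the adjusted p as lower (12% of all genes). The part of these cells in the collagen results was not tested, also where a marker value is given beside a result.

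The bases upstream of 6 chain genes are shown, since they lie before the starts of chains whose levels are compared below: the fibrillar chain Col3a1 beside Col1a2, which did not pass the test, the type VI chains, and Col8a2. Each is a RefSeq sequence on build GRCm38.p6, read 5′ to 3′ on the strand of the gene, and ends before the RefSeq span and every GENCODE M21 exon of the gene. Capitals mark matches, on either strand, to the CCAAT box (CCAAT), the TATA box (TATAAA), the GC box (GGGCGG) or the core bound by Runx2, the master transcription factor of osteoblasts (TGTGGT).
Col3a1 (chr1:45311388-45311537, plus strand): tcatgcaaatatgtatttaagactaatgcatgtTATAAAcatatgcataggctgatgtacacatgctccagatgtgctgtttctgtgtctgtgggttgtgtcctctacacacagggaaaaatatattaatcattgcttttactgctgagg
Col1a2 (chr6:4505370-4505492, plus strand): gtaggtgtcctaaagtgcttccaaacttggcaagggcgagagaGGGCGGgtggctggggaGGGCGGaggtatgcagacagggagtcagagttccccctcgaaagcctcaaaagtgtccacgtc
Col6a1 (chr10:76726169-76726294, minus strand): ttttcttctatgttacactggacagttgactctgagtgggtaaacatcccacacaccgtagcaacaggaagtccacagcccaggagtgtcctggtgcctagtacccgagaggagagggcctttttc
Col6a2 (chr10:76623631-76623780, minus strand): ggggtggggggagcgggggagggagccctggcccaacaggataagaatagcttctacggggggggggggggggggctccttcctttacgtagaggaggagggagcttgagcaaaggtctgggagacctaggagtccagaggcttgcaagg
Col6a3 (chr1:90844002-90844151, minus strand): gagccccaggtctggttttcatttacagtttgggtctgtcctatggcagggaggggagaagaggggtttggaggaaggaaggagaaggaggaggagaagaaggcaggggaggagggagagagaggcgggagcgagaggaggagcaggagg
Col8a2 (chr4:126286643-126286792, plus strand): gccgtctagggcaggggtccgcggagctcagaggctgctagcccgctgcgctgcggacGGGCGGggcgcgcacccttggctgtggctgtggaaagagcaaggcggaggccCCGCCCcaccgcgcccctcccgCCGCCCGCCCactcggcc

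The stretch before Col3a1 held a TATAAA, that before Col1a2 held GC boxes only, that before Col8a2 held 4 GC box matches of which some share bases, and those before the type VI genes held none of the 4 motifs. In full windows of 300 bases, from 250 before to 50 after the start, the GC box was present for 22 of 35 members with a RefSeq promoter (62.9%) and for 35.9% of all 27025 promoters. The full window of Col1a2 also held a CCAAT and that of Col6a2 a GC box, which the stretches shown did not. CCAAT was present for 34.3% of these members and 37.9% of all promoters, TATAAA for 14.3% and 14.2%, and TGTGGT for 5.71% (Col8a1 and Col17a1) and 16.9%. A match describes the letters in the window and no bound factor. Col1a1, Col14a1, Col2a1, Col5a2, Col12a1, Col22a1, Col9a3, Col4a3 and Col26a1 had no entry.

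Among the fibrillar chains, Col3a1 rose 2.68-fold and neither chain of type I passed the test. Col3a1 (chr1:45311538-45349706, plus strand) makes type III collagen, the thin fibrils of extensible and healing tissue. Its level per transcript length, in the authors' FPKM (fragments scaled by transcript length and by sequencing depth), was 389, 209 and 392 FPKM in control replicates 1, 2 and 3 and 925, 942 and 929 FPKM in APPswe replicates 1, 2 and 3. All APPswe libraries lay above all controls, with a log2 difference of 1.42 (SE 0.24, edgeR adjusted p = 0.00861) and 1.18 without control replicate 2, and it was called in every fit that left out a library. Col1a1 was at 705, 986 and 807 FPKM in control replicates 1, 2 and 3 and 654, 752 and 752 FPKM in APPswe replicates 1, 2 and 3. Col1a2 was at 865, 1131 and 928 FPKM in the control and 864, 897 and 884 FPKM in the APPswe libraries. Its groups overlapped by FPKM and lay just apart by CPM (4383 to 5732 CPM in control, 4145 to 4356 CPM in APPswe libraries). For both type I chains control replicate 2 was the highest of all libraries, and neither passed the test, with a log2 difference of -0.28 (SE 0.14, edgeR adjusted p = 0.189) for Col1a1 and a log2 difference of -0.22 (SE 0.11, edgeR adjusted p = 0.208) for Col1a2. By mean FPKM the order of the chains was Col1a2, Col1a1, Col3a1 in control and Col3a1, Col1a2, Col1a1 in APPswe libraries.

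Type V collagen is built into type I and III fibrils and sets their diameter, and type XI does the same for type II fibrils. Col5a1 was at 70.6, 107 and 77.4 FPKM in the control and 139, 149 and 146 FPKM in the APPswe libraries, higher in each APPswe library than in any control, with a log2 difference of 0.70 (SE 0.16, edgeR adjusted p = 0.0217). Without control replicate 2 its log2 fold change was 0.90, and this was the 1 of 6 fits leaving out a library in which it passed (adjusted p up to 0.092 in the others). Col11a1 was at 12.9, 10.2 and 10.9 FPKM in the control and 22.3, 19.2 and 20.5 FPKM in the APPswe libraries, with a log2 difference of 0.78 (SE 0.07, edgeR adjusted p = 0.00110), and passed the adjusted p in all 6 fits that left out a library. Neither change reached the fold limit. Col5a2, whose gene lies tail to tail with Col3a1 on chromosome 1 at a distance of 24624 bases, was at 201, 190.3 and 195 FPKM in the control and 239, 232 and 229.6 FPKM in the APPswe libraries. Its groups did not overlap, and a log2 difference of 0.18 (SE 0.07, edgeR adjusted p = 0.105) did not pass, where its neighbour Col3a1 stood at 1.42. Col5a2 passed the adjusted p without control replicate 2 (0.0258), at a log2 fold change of 0.16. The difference between these genes was not tested.

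The other fibrillar chains were lower in level. Col5a3 was at 9.13 to 16.0 FPKM in control and 17.8 to 20.3 FPKM in APPswe libraries, with a log2 difference of 0.49 (SE 0.20, edgeR adjusted p = 0.132). It was at 0.29 on the log2 scale and passed the adjusted p (0.0207) without control replicate 2. Col11a2, Col24a1 and Col27a1 each stayed under 5 FPKM in every library, with log2 fold changes of 0.39, -0.69 and 0.64 and edgeR adjusted p-values of 0.433, 0.411 and 0.446. Col24a1 was called lower without control replicate 2, at -1.14 (edgeR adjusted p = 8.85e-05). In all, 1 of 11 fibrillar chains was called higher (3.74% of all genes) and none lower (3.6% of all genes). By the adjusted p 3 passed as higher (10.5% of all genes), and the median log2 fold change was 0.39. Together they made up 77.8% ± 0.0429 of collagen FPKM in control and 72.1% ± 0.241 in APPswe libraries (SD, n = 3 each).

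**Figure D2:**
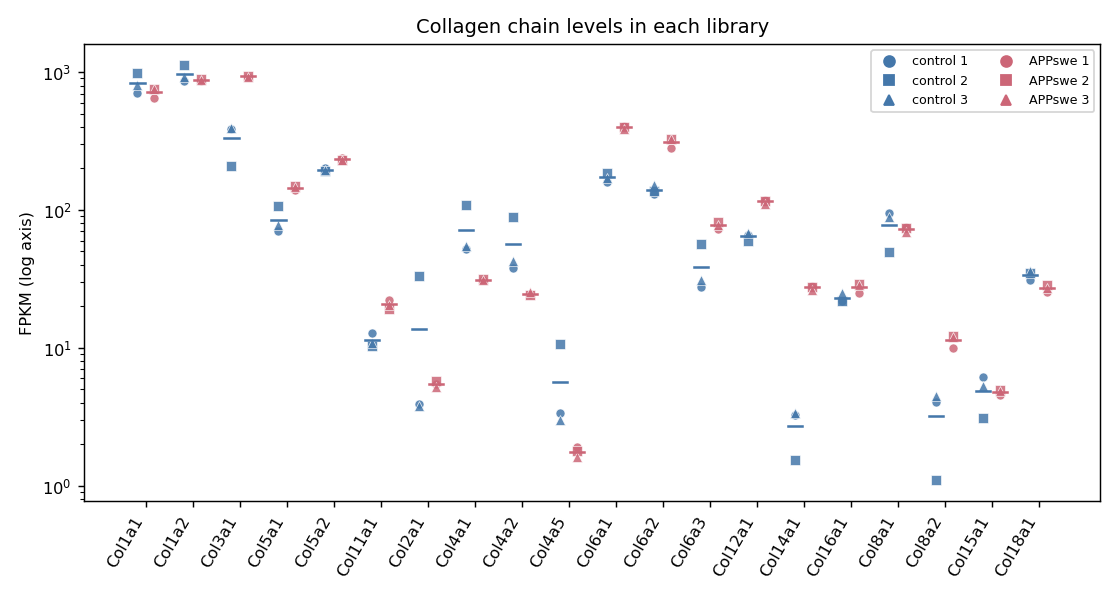
FPKM (y axis, log scale) of 20 collagen chains in each of the 3 control (blue) and 3 APPswe (red) libraries, with symbols for replicates 1, 2 and 3 and bars for group means. The APPswe symbols nearly coincide, while control replicate 2 (blue squares) departs from the other controls, upward for Col2a1, Col4a1, Col4a2, Col4a5 and Col6a3 and downward for Col3a1, Col14a1, Col8a1 and Col8a2.

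All 3 type IV chains that could be tested were lower in APPswe libraries, and the size of the difference depended on control replicate 2. Col4a1 and Col4a2 form the type IV molecule found in nearly every basement membrane, and Col4a5 forms part of a more specialised one. Col4a1 was at 52.2, 109 and 55.0 FPKM in control replicates 1, 2 and 3 and 31, 31.5 and 31.3 FPKM in APPswe replicates 1, 2 and 3. Col4a2 was at 37.9, 89.4 and 42.4 FPKM in the control and 24.6, 24.1 and 25.3 FPKM in the APPswe libraries, and Col4a5 was at 3.35, 10.7 and 3.01 FPKM in the control and 1.9, 1.77 and 1.62 FPKM in the APPswe libraries. For each of them every APPswe library lay below every control, and control replicate 2 lay farther above the other controls than those lay above the APPswe libraries. Col4a1 was 2.42-fold lower, with a log2 difference of -1.28 (SE 0.28, edgeR adjusted p = 0.0217). Col4a2 was 2.41-fold lower, with a log2 difference of -1.27 (SE 0.32, edgeR adjusted p = 0.0325), and Col4a5 was 3.40-fold lower, with a log2 difference of -1.76 (SE 0.50, edgeR adjusted p = 0.0466). Without control replicate 2 the log2 fold changes were -0.85, -0.78 and -0.92, which passed edgeR's adjusted p (1.11e-06, 6.89e-06 and 3.29e-05) and fell short of the fold limit. Without any single APPswe library none of the 3 was called, with adjusted p-values of up to 0.0911, 0.122 and 0.155. A covariate for how the library names are written also ended all 3 calls (adjusted p-values of 0.0646, 0.0894 and 0.128).

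The genes Col4a1 (minus strand) and Col4a2 (plus strand) start head to head on chromosome 8, and their RefSeq spans, 11198423 to 11312889 and 11312805 to 11449287, share 85 bases. Whether the counting used strand is not given in the sources used here, so reads on the shared bases cannot be assigned. Endothelial cells rest on a basement membrane, and their markers were mixed in control replicate 2, the library with the highest type IV levels. Pecam1 (1 count), Cdh5 (6), Emcn (2), Tie1 (0) and Cldn5 (0) were near 0 there. Tek, with 14 counts, was at its lowest of all libraries, while Kdr and Vwf, with 453 and 979 counts, were at their highest. In the other controls, Pecam1 had 827 and 895 counts, against 31 to 54 in APPswe libraries. The part of endothelial cells was not tested. The remaining type IV genes Col4a3, Col4a4 and Col4a6 had too few counts to test. The highest value among them was that of Col4a6 in control replicate 2, 0.26 FPKM, and its neighbour Col4a5, at a distance of 1274 bases on chromosome X, was also highest in that library.

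Of the 3 beaded filament chains of type VI that were tested, 2 were called higher (3.74% of all genes) and none lower (3.6% of all genes). Type VI collagen surrounds cells and links them to the fibrils of their matrix, and a molecule needs the products of Col6a1, Col6a2 and Col6a3. Col6a1 was at 160.4, 187 and 171 FPKM in control replicates 1, 2 and 3 and 409, 402 and 389.9 FPKM in APPswe replicates 1, 2 and 3. Col6a2 was at 130.3, 137 and 152 FPKM in the control and 282, 328 and 325 FPKM in the APPswe libraries. The controls, replicate 2 included, lay close together for both genes, and every APPswe library was well above them. Col6a1 rose 2.20-fold, with a log2 difference of 1.14 (SE 0.08, edgeR adjusted p = 0.000697), and Col6a2 rose 2.12-fold, with a log2 difference of 1.09 (SE 0.11, edgeR adjusted p = 0.00147). Both were called in all 6 fits that left out a library, with log2 fold changes of 1.08 to 1.20 for Col6a1 and 1.03 to 1.16 for Col6a2. The genes lie on the minus strand of chromosome 10, at 76708792 to 76726044 for Col6a1 and 76595756 to 76623630 for Col6a2, 85161 bases apart. Col6a3, on chromosome 1, was at 27.5, 56.8 and 31.2 FPKM in the control and 73.3, 81.2 and 77.4 FPKM in the APPswe libraries. Here the groups did not overlap, but control replicate 2 lay between the other controls and the APPswe libraries, and a log2 difference of 0.92 (SE 0.28, edgeR adjusted p = 0.0547) did not pass. Without that library its log2 fold change was 1.33, with an edgeR adjusted p of 4.05e-07, and it was called. The other type VI genes Col6a4, Col6a5 and Col6a6 stayed at or under 0.13 FPKM. Summed type VI chains held 11.1% ± 0.200 of collagen FPKM in control and 19.2% ± 0.103 in APPswe libraries (SD, n = 3 each). Tendon and smooth muscle marker sums were also higher in APPswe libraries, with control replicate 2 the lowest control for the tendon sum (313 CPM) and the highest for the smooth muscle sum (1598 CPM). The tendon sum was mostly Fmod and the smooth muscle sum mostly Acta2. Of the other tendon markers, Tnmd was higher in APPswe libraries (631 to 740 counts, against 122 to 171 in control), Scx overlapped (278 to 369 against 185 to 374 counts) and Mkx was lower (208 to 267 against 318 to 438 counts). Of the other pericyte and smooth muscle markers, Cnn1 had 979 to 1088 counts in APPswe and 264 to 530 in control libraries. Des had 318 to 340 against 20 to 35 counts. Notch3 overlapped and Kcnj8 had at most 3 counts. Rgs5, Cspg4 and Myh11 lay lower in APPswe libraries than in control replicates 1 and 3. The part of these cells was not tested.

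Of 7 FACIT chains tested 2 were called higher (3.74% of all genes) and none lower (3.6% of all genes). Col9a2, given with the cartilage collagens, passed the low-count filter through the APPswe libraries alone. Col14a1, the other, had the largest change of the 34 collagens tested. The gene lies at chr15:55307644-55520803 (plus strand, GRCm38.p6). Type XIV collagen binds to the surface of fibrils and limits their sideways fusion, mostly in tendon and skin. It was at 3.27, 1.53 and 3.35 FPKM in control replicates 1, 2 and 3 and 28.2, 27.8 and 26.4 FPKM in APPswe replicates 1, 2 and 3. It rose 9.61-fold, with a log2 difference of 3.27 (SE 0.29, edgeR adjusted p = 0.00108) and 2.98 without control replicate 2, and its rank by mean FPKM among the 44 chains went from 21 in control to 13 in APPswe libraries. All 6 fits that left out a library called it. Col12a1, which encodes the related type XII collagen of tension-bearing tissue and periosteum, was at 65.9, 60.0 and 68.0 FPKM in the control and 118, 117 and 111 FPKM in the APPswe libraries. Its log2 difference of 0.77 (SE 0.08, edgeR adjusted p = 0.00171) passed the adjusted p with and without every single library and stayed under the fold limit. Col16a1, found on fibrils near basement membranes, was at 22.0, 21.9 and 25.1 FPKM in the control and 25.1, 29.2 and 28.6 FPKM in the APPswe libraries, with overlapping groups and a log2 difference of 0.19 (SE 0.10, edgeR adjusted p = 0.206). Col20a1 (2.09 to 2.83 FPKM) did not pass, with an edgeR adjusted p of 0.266. Col22a1, a collagen of tissue junctions such as that of muscle and tendon, was at 0.34, 0.02 and 0.49 FPKM in the control and 0.11, 0.07 and 0.11 FPKM in the APPswe libraries, and control replicate 2 decided its test. Its edgeR adjusted p was 0.241 with all libraries and 0.000153 without that one, at log2 fold changes of -1.57 and -2.12. Col19a1 had too few counts to test.

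The cartilage collagens differed among themselves. Col2a1 makes type II collagen, the fibril of cartilage, and was at 3.94, 33.1 and 3.77 FPKM in control replicates 1, 2 and 3 and 5.49, 5.75 and 5.16 FPKM in APPswe replicates 1, 2 and 3. Control replicate 2 held 8.66 times the mean of the other controls, while each of those lay below every APPswe library. With all libraries the test gave a log2 difference of -1.39 (SE 0.84, edgeR adjusted p = 0.274), and without control replicate 2 it gave a log2 fold change of 0.44 in the opposite direction, with an edgeR adjusted p of 0.00191. Col11a1, described above, passed the adjusted p as higher, and Col11a2 did not. Col9a2, a chain of the type IX collagen that coats type II fibrils, had 7, 0 and 2 counts in the control and 19, 22 and 19 counts in the APPswe libraries. These few counts gave a log2 difference of 2.66 (SE 0.72, edgeR adjusted p = 0.0404), called without control replicate 1 or 2 and not without any other single library (adjusted p up to 0.147). It passed the low-count filter only through the group where it was high, and without that filter its edgeR adjusted p was 0.0521, which ended the call. Col9a3 (0.52 to 0.94 FPKM) did not pass, and Col9a1 had at most 12 counts and was not tested. Col10a1, a marker of cartilage cells that enlarge before bone forms, was at 1.77, 0.15 and 1.4 FPKM in the control and 1.7, 1.84 and 1.79 FPKM in the APPswe libraries, near its other controls in APPswe libraries and lowest in control replicate 2, with a log2 difference of 0.61 (SE 0.68, edgeR adjusted p = 0.553). Together, 1 of 6 cartilage collagens tested, Col9a2, was called higher (3.74% of all genes) and none lower (3.6% of all genes). Their summed share of collagen FPKM was 0.727%, 1.30% and 0.589% in control replicates 1, 2 and 3 and 0.812%, 0.725% and 0.754% in APPswe replicates 1, 2 and 3, with overlapping groups.

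Chondrocyte markers were mostly scarce. Snorc had at most 1 count in any library, Matn3 at most 7 and Cnmd at most 11, and the marker sum (21.4 CPM in control replicate 2, 286 to 388 CPM in the others) was mostly Comp, which tendon also makes. Acan, the large proteoglycan of cartilage, had 8, 0 and 11 counts in control and 72, 69 and 65 counts in APPswe libraries. It was the 1 marker called (of 4 tested), where 3.74% of all genes were called higher. It passed the low-count filter only through the APPswe libraries, so its call is given as a description. Control replicate 2, the library with most Col2a1, had 0 counts of Acan and 252 of Sox9, the transcription factor that switches Col2a1 on, against 89 and 101 in the other controls. In APPswe libraries Sox9 had 293, 341 and 355 counts, above that library, while Col2a1 was below it.

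The network-forming chains Col8a1 and Col8a2, which build the hexagonal lattice of type VIII collagen beneath endothelia, differed in level and in the outcome of the test. Col8a2 was at 4.04, 1.09 and 4.46 FPKM in control replicates 1, 2 and 3 and 9.92, 12.1 and 12 FPKM in APPswe replicates 1, 2 and 3. It rose 3.36-fold, with a log2 difference of 1.75 (SE 0.46, edgeR adjusted p = 0.0374) and 1.34 without control replicate 2, and it lost its call without control replicate 1 or any single APPswe library (adjusted p up to 0.122). Col8a1 was the more abundant chain, at 94.8, 49.8 and 89.6 FPKM in the control and 75.8, 74.1 and 69.5 FPKM in the APPswe libraries, with overlapping groups and a log2 difference of -0.17 (SE 0.23, edgeR adjusted p = 0.638). Without control replicate 2, Col8a1 stood at -0.41 with an edgeR adjusted p of 0.000267, under the fold limit.

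The multiplexins Col15a1 and Col18a1 carry heparan sulfate chains at basement membranes, and the end of Col18a1 is cut off as endostatin, an inhibitor of vessel growth. Col18a1 was at 30.9, 35.2 and 35.8 FPKM in the control and 25.5, 28.5 and 27.3 FPKM in the APPswe libraries, all APPswe libraries being below all controls, with a log2 difference of -0.40 (SE 0.09, edgeR adjusted p = 0.0260). It passed the adjusted p, not the fold limit, and passed in 2 of the 6 fits that left out a library. Col15a1 was at 6.13, 3.11 and 5.28 FPKM in the control and 4.53, 4.92 and 4.85 FPKM in the APPswe libraries, with overlapping groups and a log2 difference of -0.11 (SE 0.23, edgeR adjusted p = 0.771). The fit without control replicate 2 put it at -0.34 on the log2 scale, past edgeR's adjusted p (0.0123) and under the fold limit. Of the transmembrane chains, Col25a1, whose product is found in the amyloid plaques of Alzheimer brain, had 9, 4 and 11 counts in the control and 20, 24 and 25 counts in the APPswe libraries. Its log2 difference of 1.49 (SE 0.38, edgeR adjusted p = 0.0350) rests on these low counts, it passed the low-count filter through the APPswe libraries alone, and of the 6 fits that left out a library, it was called in that without control replicate 2 alone (1.17, adjusted p up to 0.142 in the others). Col13a1 and Col23a1 stayed under 1 FPKM and did not pass. Col7a1, the anchoring fibril of skin, was at 0.69, 0.51 and 0.85 FPKM in the control and 1.01, 1 and 1.03 FPKM in the APPswe libraries, non-overlapping but with a log2 difference of 0.49 (SE 0.20, edgeR adjusted p = 0.125). Col28a1 did not pass either (edgeR adjusted p = 0.483).

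The 10 members not tested, Col4a3, Col4a4, Col4a6, Col6a4, Col6a5, Col6a6, Col9a1, Col17a1, Col19a1 and Col26a1, had at most 29 counts in any library. Without the low-count filter Col9a1, with 1, 1 and 0 counts in the control and 4, 12 and 9 counts in the APPswe libraries, was called higher (edgeR adjusted p = 0.0316), and the other 9 were not called.

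Collagen as a whole took a larger part of the counts in each APPswe library than in any control. The 44 chains held 1.57%, 1.88% and 1.69% of all counts in control replicates 1, 2 and 3 and 2.13%, 2.24% and 2.21% in APPswe replicates 1, 2 and 3. Type I chains made up 56.9% ± 4.01 of summed collagen FPKM in control and 39.0% ± 0.823 in APPswe libraries, and type III 10.6% ± 3.98 and 22.7% ± 0.418 (SD, n = 3 each). For type IV the shares were 4.17% ± 1.66 and 1.41% ± 0.0377. Type V held 9.30% ± 0.459 and 9.67% ± 0.206, with overlapping groups. These shares are parts of a fixed whole, so a rise of one lowers the others.

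**Figure D3:**
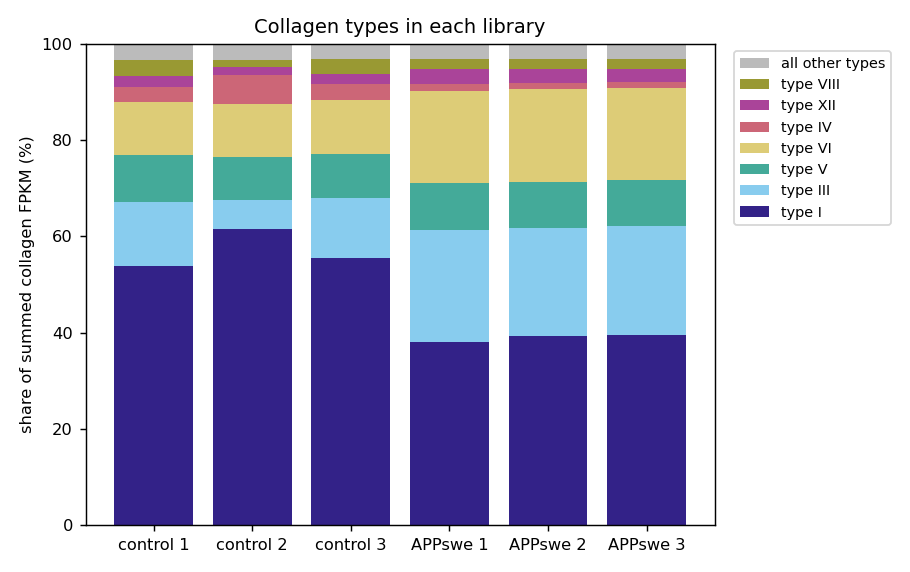
Share of summed collagen FPKM (y axis, percent) held by each collagen type in the 6 libraries, stacked to 100. Type I spans 53.9 to 61.4% in control and 38.0 to 39.6% in APPswe libraries, where the bands of type III and type VI are wider.

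Ratios between chains compare genes inside a library, free of its depth. The ratio of Col3a1 to Col1a1 FPKM was 0.552, 0.213 and 0.486 in control replicates 1, 2 and 3 and 1.41, 1.25 and 1.23 in APPswe replicates 1, 2 and 3. Col1a1 to Col1a2, whose products combine in 1 molecule, was 0.852 ± 0.0318 in control and 0.815 ± 0.0508 in APPswe libraries (SD, n = 3 each). In the same way Col4a1 to Col4a2 was 1.30 ± 0.0765 and 1.27 ± 0.0386, and Col6a1 to Col6a2 was 1.24 ± 0.119 and 1.29 ± 0.139. Thus the ratios of partner chains overlapped between the groups for types I, IV and VI. For type V they did not, since Col5a1 to Col5a2 was 0.437 ± 0.111 in control and 0.619 ± 0.0326 in APPswe libraries. Of the 8 ratios compared with a two-sided exact permutation test, 4 (Col3a1/Col1a1, Col5a1/Col5a2, Col5a1/Col1a1 and Col4a1/Col1a1) reached p = 0.1, the smallest that 3 against 3 libraries allow, with a Benjamini-Hochberg value of 0.2 over the 8. The others had exact p-values of 0.5 to 0.9, which do not show that those ratios were equal.

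**Figure D4:**
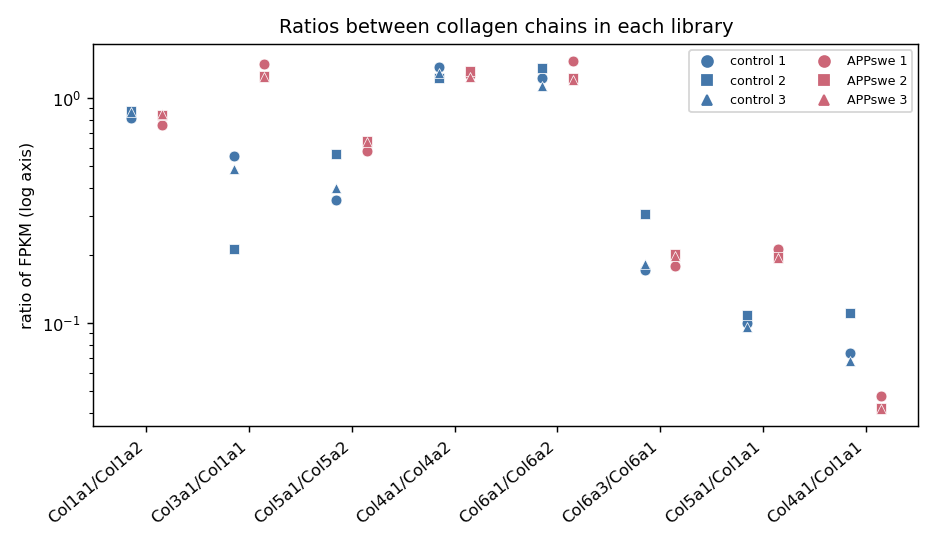
Ratio of the FPKM of 2 collagen chains (y axis, log scale) in each control (blue) and APPswe (red) library, with symbols for replicates 1, 2 and 3. The ratio of Col3a1 to Col1a1 is at most 0.552 in the controls and at least 1.23 in the APPswe libraries, while the groups overlap for Col1a1/Col1a2, Col4a1/Col4a2, Col6a1/Col6a2 and Col6a3/Col6a1.

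Collagen chains are hydroxylated and folded in the endoplasmic reticulum, exported, trimmed by proteinases, cross-linked, bound by receptors and finally degraded. Of a list of 61 genes for these steps, 59 were tested, 4 were called higher and 1 lower, beside 3.74% and 3.6% of all genes. By the adjusted p alone 12 were higher and 6 lower, beside 10.5% and 12% of all genes. Among 6 transcription factors, Sp7 (osterix), needed for osteoblasts to form and an activator of Col1a1, was at 2.16, 0.67 and 2.53 FPKM in the control and 6.69, 8.01 and 7.58 FPKM in the APPswe libraries. It rose, with a log2 difference of 1.98 (SE 0.43, edgeR adjusted p = 0.0205), while Col1a1 did not pass the test. Sox6, which acts with Sox9 on cartilage genes, was at 0.61, 1.08 and 0.69 FPKM in the control and 0.35, 0.39 and 0.21 FPKM in the APPswe libraries and fell, with a log2 difference of -1.34 (SE 0.27, edgeR adjusted p = 0.0161). Sp7 kept its call in 2 and Sox6 in 3 of the 6 fits that left out a library, with adjusted p-values of up to 0.0837 and 0.0630.

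The shares of all genes called (3.74% higher, 3.6% lower) and passing the adjusted p (10.5% and 12%) stand beside each step. Of 18 genes of folding and modification, P4ha2 was called, an enzyme subunit that hydroxylates prolines so that the helix is stable. It was at 80.9, 39.0 and 84.4 FPKM in the control and 150.2, 143 and 153 FPKM in the APPswe libraries, with a log2 difference of 1.05 (SE 0.28, edgeR adjusted p = 0.0378). Without control replicate 2 its log2 fold change was 0.77, under the fold limit, and 1 of the 6 fits that left out a library called it (adjusted p up to 0.121). None of 6 secretion genes and 7 genes of propeptide removal was called, and 1 of the latter passed the adjusted p as higher. The 5 cross-linking enzymes of the lysyl oxidase family were not called either, with 1 higher and 1 lower by the adjusted p. Of 9 receptors and uptake genes, Itga1, the collagen-binding subunit of an integrin, was at 1.76, 1.14 and 1.58 FPKM in the control and 4.01, 4.4 and 3.75 FPKM in the APPswe libraries. It rose, with a log2 difference of 1.37 (SE 0.18, edgeR adjusted p = 0.00365), was called in all 6 fits that left out a library, and was the 1 call of its group, in which 3 genes passed the adjusted p as lower. Of 8 genes of degradation, Mmp9, a gelatinase that cuts denatured and type IV collagen and is abundant in osteoclasts, was at 0.89, 0.19 and 1.14 FPKM in the control and 44.1, 45.4 and 43.5 FPKM in the APPswe libraries. Its log2 difference of 5.83 (SE 0.46, edgeR adjusted p = 0.000811) was the largest of the list. Osteoclast markers, of which Ctsk also stands in this list, were at 158 to 287 CPM in control and 595 to 606 CPM in APPswe libraries, and their part was not tested.

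Named after their values were seen, 4 further genes passed the adjusted p under the fold limit and did so in all 6 fits that left out a library. Serpinh1, the chaperone specific to procollagen, was at 465, 545 and 528 FPKM in the control and 801, 933 and 950 FPKM in the APPswe libraries, with a log2 difference of 0.73 (SE 0.11, edgeR adjusted p = 0.00583). Loxl2, a cross-linking enzyme that also acts on type IV collagen, had a log2 difference of 0.84 (SE 0.08, edgeR adjusted p = 0.00122). Bmp1, which removes the C-terminal propeptide of fibrillar collagens, had a log2 difference of 0.67 (SE 0.08, edgeR adjusted p = 0.00272). Each of these 3 was higher in all 3 APPswe libraries than in any control. Tmem38b, an ion channel of the endoplasmic reticulum needed for normal collagen assembly, was at 16.8, 13.7 and 16.8 FPKM in the control and 9.55, 10.0 and 10.2 FPKM in the APPswe libraries, lower in every APPswe library than in any control, with a log2 difference of -0.74 (SE 0.11, edgeR adjusted p = 0.00549).

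**Figure D5:**
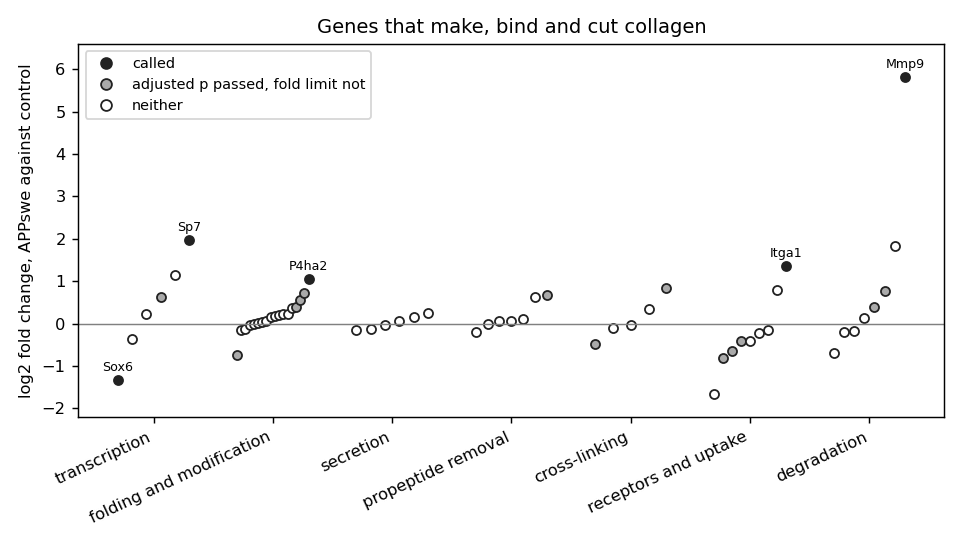
Log2 fold change (y axis, APPswe against control) of the 59 genes tested that make, bind and cut collagen, grouped by step along the x axis and sorted within each step; black points were called, grey points passed the adjusted p alone and open points neither. Mmp9 stands at 5.83, and most other genes lie between -1 and 1.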

How the data were processed

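Bulk RNA-seq of 6 libraries, prepared with a SMARTER kit per the labels and sequenced on the DNBseq platform per the study's methods, was analysed from the deposited tables. The authors deposited read counts per gene without normalization, and FPKM values normalized by them for transcript length and depth. FPKM cells left blank, in 397 or 716 genes per library, were read as 0. The columns of log2 fold change and p-value in the deposited FPKM table are the authors' own comparison and were not used. The submitters' processing notes name build GRCm38, and the aligner, the counting tool and its use of strand are not given in the sources used here.

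Counts were normalized by TMM and tested with the quasi-likelihood test of edgeR 4.0.16 in R 4.3.3 after filterByExpr, without a covariate, with Benjamini-Hochberg adjustment over 13484 genes. Standard errors of log2 fold changes were derived from the F statistic, as the size of the change divided by the root of F. Calls required an adjusted p no higher than 0.05 and a log2 fold change of 1 or more in size. CPM values use the TMM-scaled library sizes. FPKM served for levels, shares and ratios, and ratios were compared with exact permutation tests, two-sided. Total counts were 17263757 to 18398392 per library. Within groups, the chi-square per degree of freedom was 1.573 for APPswe replicates 2 and 3. It was 7.104 and 7.602 for APPswe replicate 1 with these, and 5.945 for control replicates 1 and 3. Control replicate 2 gave 72.87 and 77.25 with the other controls. All lie above sampling noise, which does not show that libraries came from separate animals or cultures. Each library was counted as a replicate. The edgeR, DESeq2 and limma steps were tested on simulated data. Alternatives were DESeq2 1.42.0, edgeR with the size factors of DESeq2, edgeR without TMM, 2 further low-count filters and 2 further thresholds, a block for the replicate number, a covariate for how the library name is written (with a hyphen or not), limma 3.58.1 on log2(FPKM + 1), filtered or unfiltered, and on log2(FPKM + 0.1), the filter being an FPKM of at least 1 in 3 libraries, and each library left out in turn.

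The members, the classes, the pathway list and the 10 cell type marker lists (osteoblast, macrophage, fibroblast, chondrocyte, endothelial, pericyte and smooth muscle, skeletal muscle, osteoclast, tendon, Schwann) were chosen with earlier results of these data known. Values per library are given for every member called and for fixed chains of each class, and pathway genes are named if called, with at most 4 per step. Col25a1, Col9a2 and Col8a2 were named because they were called, and Serpinh1, Loxl2, Bmp1 and Tmem38b after their values were seen. Of 62 pathway genes fixed, 61 were in the table. Gene positions and promoter sequences are from RefSeq on GRCm38.p6, matched by NCBI gene number for 44 and 35 of 44 members, and exons from GENCODE M21.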

Additional observations from a re-analysis of the deposited data

How the results depend on the processing

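The direction of Col3a1, Col6a1, Col6a2, Col14a1, Col4a1, Col4a2 and Col4a5 was the same under each alternative that gave a value. Against 7 chains called higher and 3 lower, glmTreat, edgeR's test for changes beyond the fold limit, called 1 and 0, the library name style as a covariate 4 and 0, and limma on unfiltered log2(FPKM + 1) 6 and 1, at FPKM + 0.1 6 and 2, a minimum of 10 counts in every library 5 and 3, no low-count filter 7 (Col9a1 in place of Col9a2) and 2, while by the adjusted p alone 10 and 4 passed. In the fits that left out one library 4 to 8 chains were called higher and 0 to 3 lower, and 2 to 5 pathway genes higher and 0 to 3 lower, and without any single APPswe library only Col3a1, Col6a1, Col6a2 and Col14a1 were called. Of the pathway genes (4 higher, 1 lower), glmTreat called 1 and 0, the adjusted p alone 12 and 6, DESeq2 5 and 2, and each limma fit 0 lower. Over all genes (504 higher, 486 lower) glmTreat called 147 and 72, a minimum of 10 counts in every library 320 and 412, and the fits without a library 281 to 670 and 230 to 905. Without control replicate 2 the change of Col2a1 was reversed, and the fits without a library ranged from -1.84 to 0.44. For Col15a1 they ranged from -0.34 to 0.077 (reversed without control replicate 1), and it was also reversed at 0.019 in limma with FPKM + 1 with or without the filter, and 0.032 with FPKM + 0.1. The cause of these shifts was not tested. The labels give both groups replicates 1, 2 and 3. Deviations of same-numbered libraries correlated at 0.0909, -0.0492 and 0.214, and not every library correlated best with its own number. With 3 libraries a group these values cannot decide whether the libraries were paired, and the main fit took them as unpaired. With the replicate number as a block 5 chains were called higher and 1 lower, 3 pathway genes higher and 1 lower, and over all genes 384 and 324. Depth limits the 10 chains not tested and Col9a2 and Col25a1, which had at most 25 counts in any library.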

Other observations

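Without control replicate 2, 3 of the 36 collagens tested were called lower, where 6.58% of all genes were, and they differ from the chains called lower with all libraries. Col24a1, a fibrillar chain found in developing bone, was at 1.24 and 1.37 FPKM in control replicates 1 and 3 and 0.570 to 0.700 FPKM in APPswe libraries, a log2 difference of -1.14 (edgeR adjusted p = 8.85e-05). Col22a1 was at 0.340 and 0.490 FPKM against 0.0700 to 0.110 FPKM. Col26a1, which passed the low-count filter in this fit and not with all libraries, had 13 and 17 counts against 4 to 6, a log2 difference of -1.59 (edgeR adjusted p = 0.00598). It passed the filter only through the controls, the group where it was high, so its call is given as a description. All 3 were at their lowest of the controls in control replicate 2, with 0.310, 0.0200 and 0 FPKM. These chains were chosen after their values were seen.

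Over the 36 collagens tested in that fit the median log2 fold change was 0.17, where it was 0.35 over the 34 tested with all libraries.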
